A study of Mus musculus with 6 samples.

Results

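Src family kinases are membrane-anchored tyrosine kinases that pass signals from growth factor receptors, integrins and cytokine receptors into the cell. The kinases Src, Yes1, Fyn, Lyn and Fgr were examined in mouse liver together with 4 of their regulators: the inhibitory kinase Csk, its membrane anchor Pag1, the ubiquitin ligase Cbl and the phosphatase SHP2, which is encoded by Ptpn11. These 9 genes were chosen by name and were found, by symbol, among 18720 rows in each of 6 deposited tables. All 9 had a mean value of at least 10 and entered the test with 16594 genes in all.

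The livers came from male C57BL/6 mice that were 1 year old and fed a high-fat diet. The R159 group (n = 3 libraries) was injected intraperitoneally with R159, a compound for which only the code name is given, and the vehicle group (n = 3 libraries) received vehicle by that route, 2 times a week for 12 weeks in both. High-fat feeding, age, sex and strain were shared by both groups, and there was no group on another diet. The labels do not say whether each library came from its own animal, so the spread behind each p-value is that of the libraries and may hold technical variation. By its title the study concerns a drug against a non-canonical arm of gp130, the receptor subunit shared by interleukin-6 type cytokines. The question here is whether transcripts of the Src family and its regulators differed between R159 and vehicle livers.

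In its resting state a Src family kinase is folded shut by a phosphorylated tyrosine in its C-terminal tail. Csk adds that phosphate, and Pag1, a transmembrane adaptor of lipid rafts, brings Csk to the membrane. Phosphatases remove it and open the kinase, and Cbl ends signalling by tagging active kinases and receptors with ubiquitin. SHP2 is recruited to gp130 and to docking proteins such as Gab1, and promotes signalling to Ras and ERK. Src, Yes1 and Fyn are made in most cell types, whereas Lyn and Fgr are best known from blood cells, macrophages among them. None of this activity can be read from transcripts, which report the amount of mRNA and not phosphorylation.

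Ptpn11 and Src had the largest falls among the 9 genes in the deposited values, and the stretch around their transcription starts is shown for that reason. RefSeq's promoter table (GRCm38.p6, 250 bases before to 50 after each start) held 7 of the 9 genes. Capitals mark matches, on either strand, to the GC box GGGCGG, the CRE TGACGTCA and the ETS core CCGGAAG. Src lies on the plus strand at chr2:157424043-157424342 and Ptpn11 on the minus strand at chr5:121191348-121191647.
Src: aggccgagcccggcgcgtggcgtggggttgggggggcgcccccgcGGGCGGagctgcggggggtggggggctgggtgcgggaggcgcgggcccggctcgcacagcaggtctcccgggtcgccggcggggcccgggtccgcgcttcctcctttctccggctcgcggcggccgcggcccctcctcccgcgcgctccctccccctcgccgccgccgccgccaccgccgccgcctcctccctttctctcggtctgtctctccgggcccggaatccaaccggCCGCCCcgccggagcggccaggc
Ptpn11: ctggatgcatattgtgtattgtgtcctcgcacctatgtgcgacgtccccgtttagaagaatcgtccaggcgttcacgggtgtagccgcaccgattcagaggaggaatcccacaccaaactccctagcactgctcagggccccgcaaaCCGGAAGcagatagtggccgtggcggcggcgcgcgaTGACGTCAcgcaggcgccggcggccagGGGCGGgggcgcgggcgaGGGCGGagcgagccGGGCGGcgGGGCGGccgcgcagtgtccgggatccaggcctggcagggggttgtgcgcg

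Both windows are rich in G and C, 82.3% for Src and 68.7% for Ptpn11, against a median of 52.7% over 27025 mouse promoters of the same length. The Src window holds 2 GC boxes and the Ptpn11 window 4, a motif found in 35.9% of all promoters. The CRE in the Ptpn11 window occurs in 1.88% of all promoters and the ETS core in 9.12%. Neither window holds the CCAAT box CCAAT, the TATA box TATAAA or the STAT motif TTCNNNGAA, which occur in 37.9%, 14.2% and 8.47% of promoters. None of the motifs overlapped one another in these windows. The matches describe the letters only.

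Values below are normalised estimated counts, that is, read counts estimated per gene and divided by 1 factor per library by the authors. Log2 fold changes are R159 minus vehicle on the log2(value + 1) scale, with limma's SE and Benjamini-Hochberg adjusted p over all 16594 genes. A gene is called where that adjusted p is below 0.05. Estimated depth was 51.3 to 55.7 M reads in R159 libraries and 66.0 to 76.7 M in vehicle libraries. Of all genes, 12.8% were called higher and 14.2% lower in R159, and 22.5% and 23.6% had groups that did not overlap, higher and lower. Scaling each library to the same total moved the median of all genes by -0.21, and the split of calls to 1173 higher and 2913 lower, against 2125 and 2354 with the deposited scaling. Leaving out vehicle replicate 1, 2 or 3 lowered the count of called genes to 2500, 1841 or 2183. Long transcripts were lower in R159 in general: across 11019 coding genes with a mean of at least 100, Spearman's correlation between length and log2 fold change was -0.50, over genes that are not independent replicates. R159 replicate 2 stood apart, with 973 genes listed at 0 against 202 to 519 in the other 5 libraries. Of 8 hepatocyte markers found in the tables, the summed value was 4.49 to 7.29 M in R159 and 3.75 to 5.59 M in vehicle, with 2 called lower (2 lower and 1 higher at an unadjusted p under 0.05). Mitochondrially encoded genes made up 8.42% to 13.6% of the summed values in R159 and 5.01% to 7.43% in vehicle, with no overlap, and the part of this difference in the results below was not tested.

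In R159 livers 4 of the 9 genes fell, Ptpn11, Src, Pag1 and Lyn, and 0 rose. Beside this count stand the 14.2% of all tested genes called lower and the 12.8% called higher, and at an unadjusted p under 0.05 limma gave 6 lower and 0 higher, where 21.4% of all tested genes were lower and 20.1% higher at that p. Of the 9, 6 had groups that did not overlap, all with R159 below vehicle: those 4, Yes1 and Csk. Of all tested genes, 23.6% had groups apart in that direction and 22.5% in the other. The median log2 fold change of the 9 genes was -0.64, against 0.00069 over all tested genes, and 8 of 9 lay below 0. Of the 5 kinases 2 were called lower, and of the 4 regulators 2. The number called lower was 1 when vehicle replicate 1 was left out, 2 when vehicle replicate 2 or 3 was, and 1 with the length trend described below removed.

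**Figure D1:**
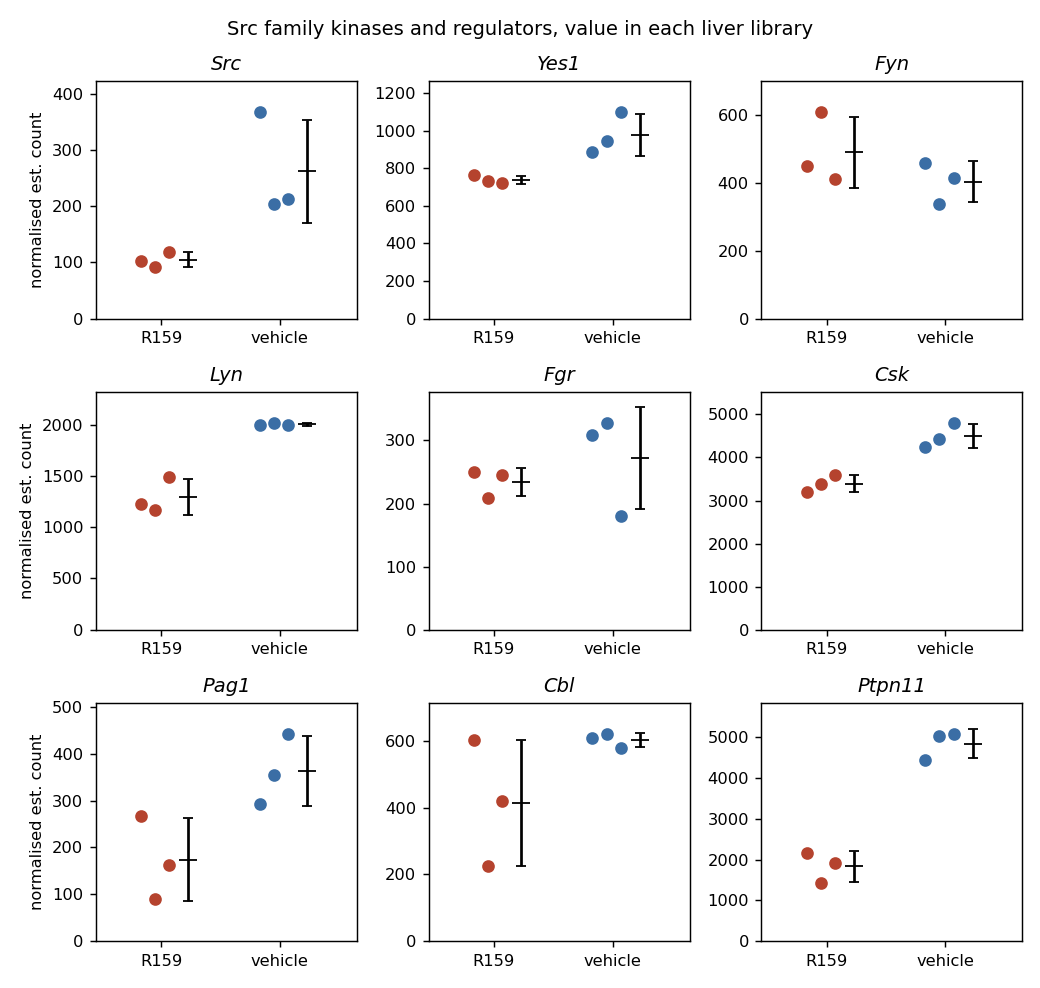
Normalised estimated count (vertical axis, from 0) of each of the 9 genes in the 3 R159 and the 3 vehicle liver libraries, with the mean and SD as black bars beside the points. The points of the groups do not overlap for Src, Yes1, Lyn, Csk, Pag1 and Ptpn11, and they do for Fyn, Fgr and Cbl.

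Src, the prototype of the family, had values of 103, 92.0 and 119 in R159 replicates 1 to 3, against 368, 205 and 214 in vehicle replicates 1 to 3. Every R159 library lay below every vehicle library, and vehicle replicate 1 stood well above the other two. Behind these values were an estimated 95.0, 64.0 and 97.0 reads in R159 and 443, 281 and 255 reads in vehicle, so Src was a low gene in these livers. The mean was 105 ± 13.5 in R159 and 262 ± 91.7 in vehicle (SD, n = 3 each), a log2 fold change of -1.27 (SE 0.30, limma adjusted p = 0.0158). Without vehicle replicate 1 the call was lost, at -1.001 (limma adjusted p = 0.0675).

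Yes1, the close relative of Src that binds the coactivator YAP, had values of 762, 734 and 719 in R159 and 884, 945 and 1099 in vehicle. The groups did not overlap, but the gap between them was close to the SD of the vehicle libraries, 110.4 (n = 3). The log2 fold change was -0.40 (SE 0.16, limma adjusted p = 0.0966), which is not called, and it was not called under any of the 18 alternatives (adjusted p 0.0545 to 0.903).

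Fyn, known from T cells and nerve cells and also made by many other cells, had values of 451, 610 and 413 in R159 and 458, 339 and 414 in vehicle. The groups overlapped, and R159 replicate 2 was the highest of the 6. Its log2 fold change of 0.27 (SE 0.22, limma adjusted p = 0.38) was the only one above 0 among the 9. It stayed above 0 and uncalled under all 18 alternatives, from 0.064 to 0.52.

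Lyn, a kinase of B cells and myeloid cells, was the most abundant of the 5 kinases. Its values were 1229, 1163 and 1490.3 in R159 and 1992, 2013 and 1997 in vehicle. The vehicle libraries were almost level, with an SD of 10.9 about a mean of 2001, and all 3 R159 libraries lay below them, with an SD of 173 about 1294 (n = 3 each). The log2 fold change was -0.64 (SE 0.15, limma adjusted p = 0.018). The call was lost when vehicle replicate 1, 2 or 3 was left out (limma adjusted p = 0.0614, 0.0827 and 0.063), while the fold change stayed between -0.74 and -0.56 over all libraries left out in turn.

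Fgr, a kinase of neutrophils, monocytes and macrophages, had values of 249, 208 and 245 in R159 and 309, 327 and 180.1 in vehicle. The lowest library of all was a vehicle one, so the groups overlapped. The log2 fold change was -0.17 (SE 0.27, limma adjusted p = 0.666).

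Lyn and Fgr are known in liver mainly from immune cells, and in a piece of tissue fewer cells of a type and less RNA per cell cannot be told apart. The summed value of 10 Kupffer cell markers was 16101 to 23067 in R159 and 21768 to 32417 in vehicle, with overlap (two-sided exact permutation p = 0.2). Of the 10, limma called 3 lower and 0 higher (3 lower and 2 higher at an unadjusted p under 0.05). The background for each marker count here is all tested genes, of which 14.2% were called lower and 12.8% higher. At that unadjusted p the shares were 21.4% and 20.1%. Of 9 markers of monocyte-derived macrophages 4 were called lower (6 lower and 0 higher at an unadjusted p under 0.05). Their sums overlapped, at 7504 to 9421 in R159 and 8010 to 13205 in vehicle (exact permutation p = 0.3). Sums of 9 neutrophil markers were 431 to 1378 in R159 and 225 to 561 in vehicle, and limma called 0 of the 7 tested (2 higher and 0 lower at an unadjusted p under 0.05). Among these Mmp8 was listed at 0 in R159 replicates 1 and 2, and Ltf in R159 replicate 2. Sums of 6 B cell and plasma cell markers were 519 to 1026 in R159, all above the 329 to 380 of vehicle, with 1 called higher. Sums of 5 platelet markers, of cells rich in Src, Fyn and Lyn, were 275 to 654 in R159 and 161 to 231 in vehicle, and limma called 0 of them (2 higher and 0 lower at an unadjusted p under 0.05). Sums of 9 T and NK cell markers were 267 to 579 in R159 and 176 to 489 in vehicle, and limma called 0 of the 7 tested (1 higher at an unadjusted p under 0.05). Of these Klrb1c was listed at 0 in R159 replicates 2 and 3 and Ncr1 in R159 replicate 2. Sums of 6 erythroid markers, the haemoglobin genes among them, were 40705 to 59912 in R159 and 12935 to 21824 in vehicle, with no overlap and 4 called higher. The part of these cells in the kinase values was not tested.

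The make-up of the family was compared per length of transcript, by dividing each value by the length in kb of the longest coding transcript in GENCODE M21. Lyn made up 47.4%, 44.6% and 53.4% of the summed level of the 5 kinases in R159 and 53.1%, 56.3% and 55.4% in vehicle. Yes1 followed in every library, with 21.0% ± 1.41 in R159 and 20.3% ± 2.62 in vehicle (SD, n = 3 each), except that Fyn exceeded it in R159 replicate 2. Src was the smallest share of the 5 in R159, with 3.52%, 3.13% and 3.77%, against 8.70%, 5.08% and 5.26% in vehicle. Every R159 share of Src lay below every vehicle share. Fyn took the opposite side, with 16.9%, 22.7% and 14.4% in R159 against 11.9%, 9.22% and 11.2% in vehicle, again with no overlap. Two-sided exact permutation tests gave p = 0.1 for both Src and Fyn, the smallest that 3 libraries against 3 allow, and p = 0.2 for Lyn, 0.5 for Fgr and 0.8 for Yes1. Adjusted over the 5 shares, p was 0.25 for Src and Fyn. The summed level per kb of the 5 kinases was 748, 753 and 807 in R159, against 1083, 1032 and 1041 in vehicle (exact permutation p = 0.1).

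**Figure D2:**
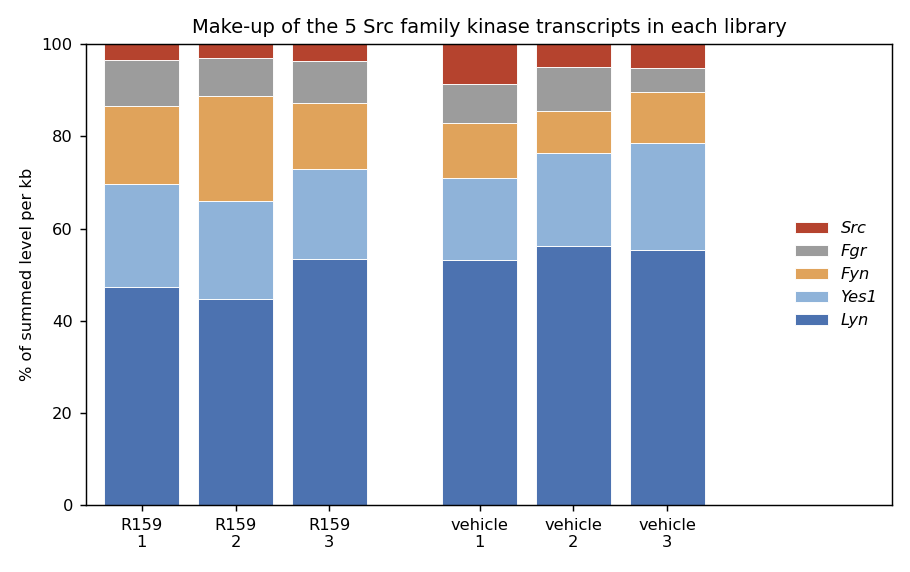
Share of each kinase in the summed level per kb of Src, Yes1, Fyn, Lyn and Fgr (vertical axis, %), with 1 bar for each R159 and each vehicle library. Src is 3.13% to 3.77% in the R159 bars and 5.08% to 8.70% in the vehicle bars, and Fyn is 14.4% to 22.7% against 9.22% to 11.9%.

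Csk, which phosphorylates the tail of the Src family kinases and holds them shut, was the most abundant of the 9 genes per kb in both groups. Its values were 3189, 3389 and 3598 in R159 and 4244, 4431 and 4796 in vehicle. The groups did not overlap, but the log2 fold change of -0.40 (SE 0.14) missed the threshold (limma adjusted p = 0.0602). With libraries scaled to equal totals it was called (-0.61, adjusted p = 0.0248), and over the 18 alternatives the adjusted p ran from 0.0248 to 0.19.

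Ratios within a library do not depend on its scaling, but the length trend described below was not removed from them. Its part in the ratios was not tested. The level per kb of Csk over the sum of the 5 kinases was 1.60 ± 0.0466 in R159 and 1.55 ± 0.125 in vehicle (SD, n = 3 each, two-sided exact permutation p = 0.7), a difference smaller than the spread among vehicle libraries. Src over Csk was 0.0227, 0.0191 and 0.0233 in R159, against 0.061, 0.0325 and 0.0314 in vehicle. Src over Yes1 was 0.159, 0.147 and 0.194 in R159, against 0.488, 0.254 and 0.228 in vehicle. Ptpn11 over Csk was 0.334, 0.206 and 0.261 in R159, against 0.514, 0.558 and 0.52 in vehicle. In each of these 3 ratios every R159 library lay below every vehicle library, with exact permutation p = 0.1, the smallest possible, and 0.167 adjusted over 5 ratios. Pag1 over Csk overlapped between groups (exact permutation p = 0.3).

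Pag1, the anchor that brings Csk to the membrane, had values of 268, 90.6 and 163 in R159 and 293, 354 and 442 in vehicle. R159 replicate 1 lay just under the lowest vehicle library, and R159 replicate 2 far under the others. The log2 fold change was -1.17 (SE 0.38), just past the threshold (limma adjusted p = 0.0466). The call was lost without R159 replicate 2 (-0.77, adjusted p = 0.0995), without R159 replicate 3 (0.086) and without vehicle replicate 1, 2 or 3 (0.075, 0.114 and 0.147). It was also lost without the empirical Bayes trend (0.093) and with equal totals (0.0527). With the length trend removed it was lost both without and with a replicate block (0.133 and 0.146), so that 9 of 18 alternatives called it.

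Cbl, the ligase that marks active receptors and kinases for degradation, had values of 603, 224 and 420.4 in R159 and 611, 621 and 579 in vehicle. The vehicle libraries were close together and the R159 libraries far apart, with replicate 1 inside the vehicle range and replicate 2 lowest. The mean was 416 ± 189 in R159 and 604 ± 22.0 in vehicle (SD, n = 3 each). The log2 fold change of -0.65 (SE 0.32, limma adjusted p = 0.16) was not called, and it was called only without R159 replicate 1 (-0.97, adjusted p = 0.0314) among 18 alternatives (adjusted p 0.0314 to 0.596).

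Ptpn11, which encodes SHP2, had the largest fold change of the 9 in the deposited values. Its values were 2166, 1423 and 1913 in R159 and 4442, 5033 and 5078 in vehicle. The highest R159 library held less than the lowest vehicle library by a gap wider than the whole range within either group. The mean was 1834 ± 378 in R159 and 4851 ± 355 in vehicle (SD, n = 3 each), with a log2 fold change of -1.42 (SE 0.18, limma adjusted p = 0.00343). On that scale R159 livers held 37.3% of the vehicle level. By p it ranked 122 of 16594 genes, and it was called under all 18 alternatives, with fold changes from -1.63 to -0.97 and adjusted p from 0.0011 to 0.0236.

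Ordered by level per kb, R159 livers ran from Csk (1234 ± 74.4) through Lyn (374 ± 50.0), Ptpn11 (328 ± 67.5), Yes1 (161 ± 4.76), Fyn (138 ± 29.3), Fgr (69.7 ± 6.67), Cbl (36.6 ± 16.6) and Src (26.8 ± 3.46) to Pag1 (21.0 ± 10.8). In this order the libraries of Lyn and Ptpn11 overlapped, as did those of Yes1 and Fyn, Cbl and Src, and Src and Pag1. Vehicle livers ran from Csk (1633 ± 102) through Ptpn11 (866 ± 63.4), Lyn (578 ± 3.16), Yes1 (213 ± 24.1), Fyn (113 ± 17.0), Fgr (80.9 ± 23.8), Src (67.1 ± 23.5) and Cbl (53.1 ± 1.94) to Pag1 (44.0 ± 9.03). There each neighbouring pair from Fyn to Pag1 overlapped, and the higher genes were apart. Ptpn11 thus stood above Lyn in every vehicle library, and the libraries of both overlapped in R159. The SD is over 3 libraries in each group.

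Fold changes went with transcript length across coding genes, as given above, and the 9 transcripts run from 2749 nt for Csk to 11372 nt for Cbl. What lies behind that trend, and its part in the fold changes of the 9 genes, was not tested. Of coding genes in the same length decile as Ptpn11 (5599 nt), 37.4% were called lower and the median log2 fold change was -0.49. At the length of Pag1 (8256 nt) and Cbl 37.0% were called lower with a median of -0.52, at that of Src (3906 nt) 27.1% with -0.32, and at that of Lyn (3463 nt) 22.2% with -0.26. Within libraries, deviations from the mean of all 6 correlated with length at 0.019, -0.60 and -0.49 for R159 replicates 1 to 3, against 0.34, 0.47 and 0.50 for vehicle replicates 1 to 3 (Spearman's correlation across genes). Cbl, Pag1 and Ptpn11, the longest of the 9, were also ordered replicate 1, 3, 2 from high to low within R159.

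**Figure D3:**
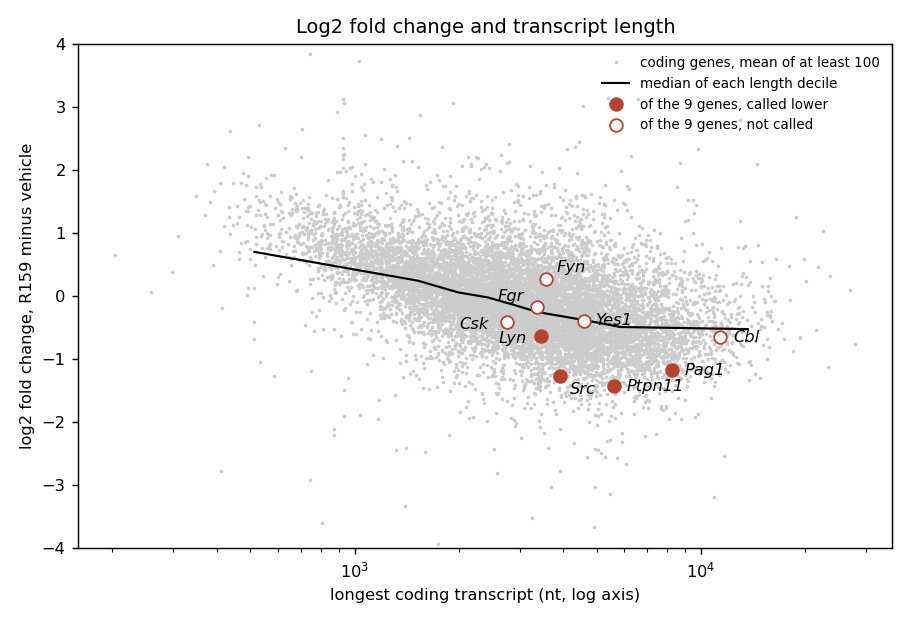
Log2 fold change (R159 minus vehicle) against the length of the longest coding transcript (nt, log axis) for 11019 coding genes in grey, with the median of each length decile as a line drawn through the geometric midpoint of its range, and the 9 genes in red, filled where called lower. The 7 genes beyond 4 on either side of the vertical axis are not shown. Src, Ptpn11, Pag1 and Lyn lie below the line, and Cbl, Yes1 and Fgr close to it.

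With the length trend of each library removed, Ptpn11 alone of the 9 was called (-0.97, SE 0.13, limma adjusted p = 0.00443), where 8.78% of 13491 genes with a length were called lower and 9.95% higher. On that log2 scale its libraries were at 11.1, 10.9 and 11.2 in R159 and 12.0, 12.1 and 12.0 in vehicle. Src kept most of its difference and lay just outside the threshold (-0.99, SE 0.30, adjusted p = 0.0506), with 6.77, 6.75 and 7.05 in R159 and 8.44, 7.55 and 7.54 in vehicle, still without overlap. Lyn was at -0.41 (adjusted p = 0.0652), Csk at -0.31 (0.0818) and Pag1 at -0.66 (0.133). Yes1 came to -0.031 (0.894) and Cbl to -0.18 (0.596). Fgr turned to 0.043 (0.926) and Fyn moved up to 0.52 (0.13).

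**Figure D4:**
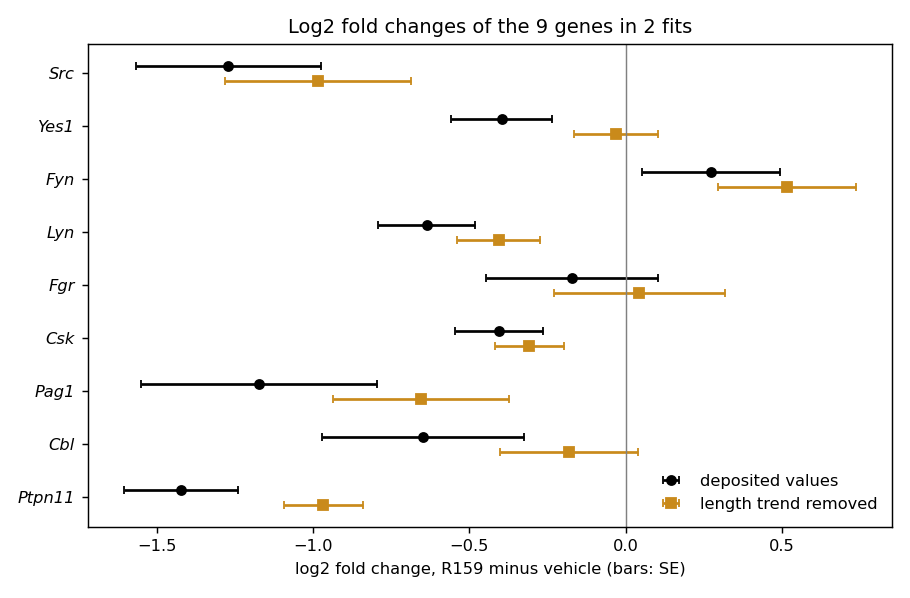
Log2 fold change (R159 minus vehicle, horizontal axis) of the 9 genes with its SE, from the deposited values (black circles) and with the length trend of each library removed (amber squares). Ptpn11 is at -1.42 and -0.97, Src at -1.27 and -0.99, and Yes1 at -0.40 and -0.031.

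The surroundings of the family were followed in 7 lists of 76 further genes, 74 of them tested. In R159, 27 of these 74 were lower and 2 higher, with a median log2 fold change of -0.58, against 14.2% called lower, 12.8% called higher and a median of 0.00069 over all tested genes. At an unadjusted p under 0.05 limma gave 38 lower and 3 higher. Of all tested genes, 21.4% were lower and 20.1% higher at that p, the background for each list's unadjusted count below. The transcripts of these lists were long as well, 4124 nt at the median. With the length trend removed 10 were lower and 1 higher, of which 8 and 1 had also been called before. The count of lower genes was 15, 12 and 16 without vehicle replicate 1, 2 and 3. Of 23 called genes looked at one by one, 10 stayed called whichever library was left out, among them Ptpra, Lime1, Arhgap35, Vcl, Nedd9, Gab1, Sorbs2, Pik3ap1 and Cttn. Of the other 13, 9 lost the call without vehicle replicate 1, 12 without vehicle replicate 2, 9 without vehicle replicate 3, and 2, 6 and 6 without R159 replicates 1, 2 and 3.

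Among 6 other kinases of the Src type, Frk, an epithelial kinase that liver makes, was the only one called (1 lower and 1 higher at an unadjusted p under 0.05), and the median of the list was -0.21. The list thus had 16.7% lower, where 14.2% of all tested genes were. At its median length of 2444 nt, 11.1% of coding genes were called lower. The values of Frk were 216, 232 and 131 in R159 and 378, 317 and 366 in vehicle (-0.91, SE 0.26, limma adjusted p = 0.0336, and 0.179 with the length trend removed). Lck, the T cell kinase, gave -0.59 (limma adjusted p = 0.36) and was not called. Srms, named after its values were seen, had low values of 21.7, 35.9 and 27.0 in R159 and 8.31, 6.56 and 14.2 in vehicle. Its groups did not overlap, and its log2 fold change of 1.48 (SE 0.58, limma adjusted p = 0.0862) was not called.

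Phosphatases that act on the tail or on the kinase domain of Src, listed with the Csk homologue Matk, had 4 of 10 lower and 0 higher by limma (5 and 0 at an unadjusted p under 0.05), with a median of -0.55. At their median length of 3746.5 nt, 27.1% of coding genes were called lower, and 14.2% of all tested genes were. Ptpra, a receptor phosphatase that opens Src by removing the tail phosphate, had values of 1582, 1157 and 1670.5 in R159 and 2753, 2597 and 2800.1 in vehicle (-0.90, SE 0.17, limma adjusted p = 0.00799). Ptpn1, which encodes PTP1B, was at -0.70 (0.0122), and Ptprj, a receptor phosphatase known as CD148, at -1.20 (0.0139). The fourth was Ptpn12 (-0.67, 0.0328), named here after its values were seen. None of these 4 was called with the length trend removed (adjusted p 0.0505 to 0.0798). Ptprc, which encodes CD45, and Ptpn6, which encodes SHP1, both of blood cells, were at -0.35 (limma adjusted p = 0.369) and 0.035 (0.9).

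Of 8 tested anchors of Csk and docking proteins, 2 were higher and 2 lower, with a median of -0.30. At their median length of 2346 nt, 10.6% of coding genes were called higher and 11.1% lower. Over all tested genes the shares were 12.8% and 14.2%. Lime1, a transmembrane adaptor that binds Csk as Pag1 does, rose. Its values were 477, 236 and 354 in R159 and 96.9, 127 and 83.6 in vehicle (1.75, SE 0.31, limma adjusted p = 0.00633), and it kept its call with the length trend removed (1.66, 0.0146). Lime1 overlaps Zgpat on the same strand in GENCODE M21, so reads of the pair may have been divided uncertainly. Dok3, a docking protein of myeloid and B cells, was at 1.10 (limma adjusted p = 0.0232, 0.0671 with the length trend removed and 0.0857 with equal totals). Sirpa, a macrophage receptor that recruits SHP1 and SHP2, was at -1.11 (0.0182), and Pxn, which encodes paxillin, at -0.58 (0.0356). Both lost the call with the length trend removed (Sirpa at -0.81, adjusted p = 0.083, and Pxn at -0.32, 0.129), and Pxn also with quantile normalization (0.0606).

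The substrates of Src at focal adhesions and cell junctions had 11 of 17 lower and 0 higher by limma (15 and 0 at an unadjusted p under 0.05). Their median log2 fold change was -0.71 and their median length 4871 nt. The 64.7% called lower stand beside 14.2% of all tested genes and 33.4% of coding genes of that length. Vcl, which encodes vinculin, a linker of adhesions to actin, had values of 773, 204 and 509 in R159 and 2414, 2538 and 2647 in vehicle (-2.55, SE 0.40, limma adjusted p = 0.00476). Arhgap35, which encodes a GTPase-activating protein that acts on the actin cytoskeleton, was at 3740.0, 2535 and 3245 in R159 and 7119, 7964 and 9069 in vehicle (-1.35, SE 0.18, limma adjusted p = 0.0036). Nedd9, a scaffold of the p130Cas family, was at 190, 218 and 205 in R159 and 725, 655 and 420 in vehicle (-1.51, SE 0.24, limma adjusted p = 0.00489). In all 3 genes each R159 library lay below each vehicle library, and all 3 kept their call with the length trend removed (adjusted p 0.00776, 0.00473 and 0.0235). Cttn also kept it (0.0124), but not all of the 11 did. Pxn, which stands in this list too, lost its call (0.129). So did others, among them Ctnnd1 (0.203) and Vav2 (0.223), named after their values were seen. Adhesion genes are also made by stellate cells, the collagen-making cells of the liver. Of 10 markers of these cells 4 were called lower, beside the 14.2% of all tested genes. Their sums were 11651 to 25730 in R159 and 19801 to 35488 in vehicle, with overlap. The part of stellate cells in this list was not tested.

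Partners of SHP2 had 4 of 12 lower and 0 higher by limma (6 and 0 at an unadjusted p under 0.05), with a median of -0.61 at a median length of 5296 nt. These 33.3% stand beside 14.2% of all tested genes called lower and 37.4% of coding genes of that length. Gab1, the docking protein through which SHP2 works below gp130 and growth factor receptors, had values of 475, 299 and 421 in R159 and 850, 725 and 962 in vehicle. The groups did not overlap (-1.10, SE 0.22, limma adjusted p = 0.00913), and the call held with the length trend removed (-0.70, 0.0307). Sos1, a Ras activator, was at -0.94 (limma adjusted p = 0.0131) and lost its call there (0.0635). Sirpa, given above, belongs to this list too. The fourth called was Sos2 (-0.86, 0.0292), named after its values were seen, which lost its call with the length trend removed (-0.40, 0.151) and stayed called in 1 of the 6 fits that left out a library. The adaptor Grb2 was at -0.27 (limma adjusted p = 0.276) and Shc1 at -0.19 (0.379).

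Of 9 tested relatives and partners of Cbl, 4 were lower and 0 higher by limma (5 and 0 at an unadjusted p under 0.05), with a median of -0.59 at a median length of 6337 nt. These 44.4% stand beside 14.2% of all tested genes called lower and 37.4% of coding genes of that length. Sorbs2, an adaptor that binds Cbl, was at -0.97 (limma adjusted p = 0.00618) and Cd2ap, an adaptor of the actin cytoskeleton, at -0.81 (0.0167). Sh3kbp1, named after its values were seen, was at -0.85 (0.0407). Sorbs2, Cd2ap and Sh3kbp1 all lost the call with the length trend removed. The sister ligases Cblb and Cblc were at -0.45 (limma adjusted p = 0.101) and -0.012 (0.977).

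Myeloid genes that work beside Lyn and Fgr had 3 of 16 lower and 0 higher by limma (6 and 0 at an unadjusted p under 0.05), with a median of -0.51 at 2967 nt. The share called lower, 18.75%, was near the 14.2% of all tested genes and the 16.7% of coding genes of that length. Pik3ap1, an adaptor of PI3 kinase known as BCAP, had values of 2769, 2716 and 2542 in R159 and 5937, 5744 and 6142 in vehicle (-1.15, SE 0.14, limma adjusted p = 0.00311, and 0.00527 with the length trend removed). Inpp5d, which encodes the lipid phosphatase SHIP1, was at -0.73 (0.0376), and Itgb2, the leukocyte integrin beta chain, at -0.83 (0.0422). Both of these lost the call with the length trend removed, and Itgb2 also with quantile normalization (0.0628). The short adaptor genes Fcer1g and Tyrobp were at 0.094 (0.84) and 0.19 (0.578), and became lower with the length trend removed (-0.89, adjusted p = 0.0331, and -0.91, 0.0206). The sums of Kupffer cell and macrophage markers given above overlapped between the groups, and the part of these cells in this list was not tested.

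**Figure D5:**
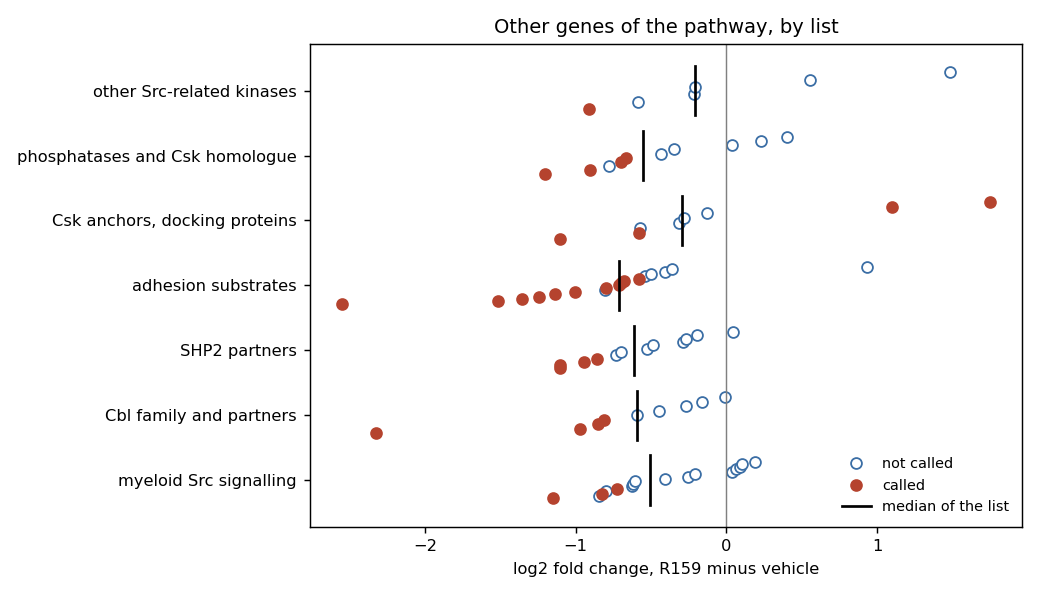
Log2 fold change (R159 minus vehicle) of the 74 further genes, by list, with filled points for called genes, open points for the others and a bar at each list's median. Some genes stand in more than 1 list. The adhesion substrates have the lowest median, -0.71, and Lime1 and Dok3 are the called genes above 0.

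Likeness to Src and to Ptpn11 was measured among these 74 genes as the root-mean-square difference over the 6 libraries between log2 values, each gene centred on its own mean. The difference between the groups is part of this measure, so it does not show likeness apart from a similar fold change. Sirpa (0.29) and Nedd9 (0.30) were nearest to Src. Arhgap35 (0.068) and Cttn (0.18), which encodes the actin-binding Src substrate cortactin, were nearest to Ptpn11. Cttn had a log2 fold change of -1.24 (SE 0.22, limma adjusted p = 0.00618).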

How the data were processed

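Per the labels' protocols, poly(A) RNA of liver was made into stranded libraries primed with random and oligo(dT) primers and read as paired ends of 50 bases. Tools named in the submitters' processing notes, with no role, are STAR 2.7.8a, DESeq2 3.5, FastQC 0.11.9, cutadapt and R 4.2.3, with mm39 as the build. Which counter made the estimates, and whether it used strand, is not given in the sources used here. Overlapping genes are annotated for Yes1, Fyn, Lyn, Pag1, Cbl and Ptpn11, so reads of such pairs may be shared.

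The deposited values are a signal, estimated counts divided by 1 factor per sample by the authors. Low values lay at multiples of 1 step per library, which gave the estimated depth, but among values of less than 200 reads only 67.5% to 75.6% came within 0.02 of a whole read, and a count model was therefore not fitted. Of 18720 rows, 16594 had a mean of at least 10. These were tested as log2(value + 1) with limma 3.58.1 (R 4.3.3, eBayes with trend, group only, Benjamini-Hochberg threshold 0.05). A fold change on this scale understates that of low genes.

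Lengths came from GENCODE M21 (GRCm38, used for length and overlap only) and were found for 13491 tested genes (81.3%). For the length correction a lowess curve (span 0.3) of each library's deviations on log2 length was subtracted. The limma test was tried on simulated data with 200 of 16594 genes changed. It called 25% of genes with a log2 change of 1 and 69% of those with 2. It also called 8 unchanged genes there, and 0 in simulated data without change. The deposited values gave 4479 called genes, so these shares may not hold for them. A gene not called may still have changed. Whether the replicate numbers pair libraries was not settled, and the main fit used no pairing. The genes and lists were chosen with earlier results of these data known. Named were the 9 genes, up to 3 called genes of smallest p per list and direction, and the 2 nearest to Src and to Ptpn11. Some genes that this rule or the lists hold are not reported here by name, though the lists' counts and medians include them. Figures were drawn with matplotlib 3.10.9.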

Additional observations from a re-analysis of the deposited data

How the results depend on the processing

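Ptpn11 was called under all 18 alternatives, and Yes1, Fyn and Fgr under none. A looser threshold, an adjusted p of 0.1, called 6 of the 9 genes lower, with Yes1 (0.0966) and Csk (0.0602) added, beside 6371 genes in all. With the length trend removed, 2527 genes were called in all, 1 of the 9 genes lower, and 10 pathway genes lower and 1 higher, where the deposited values gave 4479, 4, 27 and 2. With the replicate block added these were 2247, 1, 10 and 1. In those fits Src was at -0.99 (adjusted p 0.0506, and 0.0675 with the block), Lyn at -0.41 (0.0652 and 0.102) and Pag1 at -0.66 (0.133 and 0.146), none called, and Fgr reversed to 0.043. Equal totals gave Csk -0.61 (called), Pag1 -1.38 (not called) and 1 pathway gene higher. Without the empirical Bayes trend Pag1 was at -1.17 (not called) and 16 pathway genes were lower.

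Leaving out each library in turn gave 1841 to 5425 called genes, 1 to 5 of the 9 genes lower, 12 to 31 pathway genes lower and 1 to 2 higher. Fold changes were then -1.42 to -1.001 for Src, -0.74 to -0.56 for Lyn, -1.55 to -0.77 for Pag1 and -0.97 to -0.26 for Cbl, and the share of Yes1 (R159 minus vehicle) ran from -0.51 to 2.10 points, reversed without vehicle replicate 1. The cause was not tested for any of these, except that fewer libraries or genes entered some fits. The replicate block alone changed no call among the 9 genes, with 3945 genes called in all. Pathway genes called lower were then 23 and not 27. The calls that ended included those of Pxn (limma adjusted p = 0.0622) and Itgb2 (0.0613). Same-numbered libraries correlated at -0.098, 0.031 and 0.11 in their deviations, and libraries of unlike number at -0.14 to 0.098. With 3 libraries in each group these values cannot exclude that the numbers pair libraries. Src rested on 64.0 to 97.0 estimated reads in each R159 library.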
